A study of Mus musculus with 6 samples.

Results

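The genes described here encode the matrix metalloproteases (Mmp), the Adamts proteases with their protease-free relatives the Adamts-like proteins (Adamtsl), and the tissue inhibitors of metalloproteases (Timp). Members were taken by gene symbol alone, from probe sets that the platform annotation assigns to a single symbol, and the brightest probe set, by its mean over the 6 arrays, stands for each gene. This gave 42 genes of 18193, read by 78 of 45037 probe sets: 18 Mmp, 15 Adamts, 5 Adamtsl and 4 Timp genes. Expression was measured in cerebellar endothelial cells of 16-day-old mice, drawn out with beads coated in antibody to PECAM, an endothelial surface protein. One group was Fz4-/- (lacking Frizzled4, the receptor encoded by Fzd4) and the other wild type, each with 3 arrays, and every sample is labelled as mixed gender and as of a mixed C57Bl6/129 background. The labels say Fz4-/- and name no promoter or Cre, so nothing in them limits the loss to endothelial cells, and the extent of the deletion is not described in the labels. By its title, the study asked what a lasting loss of Frizzled4 signalling does to the endothelial transcriptome.

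Metalloproteases cut the proteins of the extracellular matrix and the basement membrane, and they release growth factors and receptor fragments from cell surfaces. Most Mmp proteins are secreted as inactive precursors, and some are held in the plasma membrane, where Mmp14 together with Timp2 activates the precursor of Mmp2. Adamts proteases carry thrombospondin repeats, and several of them cut large proteoglycans such as versican and aggrecan. Timps bind the active site of these enzymes, and Timp3 is bound to the matrix and also inhibits Adamts proteases. In the vessel wall this balance is known for its part in sprouting, in basement membrane turnover and in opening of the blood-brain barrier during inflammation. Frizzled4 is the endothelial receptor through which Norrin, a secreted ligand, acts on vessels of the retina and cerebellum.

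All values are log2 expression from RMA, which subtracts background, equalises the distributions of the arrays and combines the probes of each set. Differences are null minus wild type with the standard error (SE) of limma's moderated fit, and 1 on this scale is 2-fold. Probe sets bind with different strength, so levels are not compared between genes, and each is placed only against the quartiles of its array. Array medians lay between 5.52 and 5.58 and lower quartiles between 3.46 and 3.64, and a value below the lower quartile is not shown to lie above background. Fzd4, the deleted gene, averaged 10.63 ± 0.37 for wild type and 3.69 ± 0.56 for null (SD, n = 3 each), a difference in the direction of the labels on all 6 arrays. Endothelial markers were high on all 6 arrays, with a list mean of 11.29 to 11.46 in wild type and 11.58 to 11.68 in null, and 0 of its 14 measured genes lay below the lower quartiles.

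Several arrays stood apart in markers of other cells. Null replicate 1 had less signal from markers of non-endothelial cells: the mean of 12 fibroblast and meningeal markers was 9.02, 8.95 and 9.47 in wild type and 6.64, 9.42 and 8.48 in the null arrays (replicates 1 to 3 in each case). For 11 microglia and macrophage markers the means were 8.15, 8.19 and 8.07 in wild type and 5.39, 8.23 and 7.94 in the null arrays. The 12 astrocyte and Bergmann glia markers read 8.28, 8.64 and 9.09 in wild type and 6.93, 8.90 and 8.81 in the null arrays, and the 12 pericyte and smooth muscle markers 10.61, 10.55 and 11.11 in wild type and 9.48, 10.84 and 11.13 in the null arrays. Wild-type replicate 3 had the most choroid plexus signal, the 10 measured markers averaging 5.50, 5.38 and 7.71 in wild type and 4.38, 4.92 and 4.66 in the null arrays. The mean of this list was lower on every null array than on every wild-type array. In these 5 lists 0 markers lay below the lower quartiles on every array. A lower value in such RNA can mean fewer cells of a type or less RNA per cell, and the arrays cannot tell them apart.

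The Mmp genes include a chromosomal cluster, and its members share promoter features. In the RefSeq table of assembly GRCm38.p6, 9 members (Mmp13, Mmp12, Mmp1b, Mmp3, Mmp1a, Mmp10, Mmp8, Mmp20 and Mmp7) lie in a row on chromosome 9, and all 10 protein-coding genes of that span are Mmp genes. The remaining gene of the row, Mmp27, was not analysed here. RefSeq promoters were at hand for 27 of the 42 members, as 30 windows of the 250 bases before the transcription start. The letters TGAGTCA or their reverse complement TGACTCA, the core site of the AP-1 factors (Fos and Jun), were found in 7 of the 9 clustered genes and in 0 of the 18 other members with a promoter. Among all 27025 genes with a promoter of this length the share was 5.16%. The 7 matches follow with 20 bases on each side, 5′ to 3′ on the gene's strand, the match in capitals, to let the sites be compared.
Mmp13 (chr9:7272459-7272505, + strand): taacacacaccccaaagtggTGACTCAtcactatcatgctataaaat
Mmp12 (chr9:7347310-7347356, + strand): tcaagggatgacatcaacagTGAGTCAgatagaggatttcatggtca
Mmp1b (chr9:7388093-7388139, - strand): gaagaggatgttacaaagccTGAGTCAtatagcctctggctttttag
Mmp3 (chr9:7445756-7445802, + strand): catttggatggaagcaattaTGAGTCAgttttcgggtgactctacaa
Mmp1a (chr9:7464048-7464094, + strand): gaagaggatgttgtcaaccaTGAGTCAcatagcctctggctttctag
Mmp10 (chr9:7502259-7502305, + strand): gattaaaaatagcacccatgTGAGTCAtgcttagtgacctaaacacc
Mmp7 (chr9:7692007-7692053, + strand): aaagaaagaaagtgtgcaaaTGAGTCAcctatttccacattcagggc
The matches began at -35 in Mmp13, -44 in Mmp12, -46 in Mmp3, -63 in Mmp10 and Mmp7, -73 in Mmp1a and -93 in Mmp1b, counted in bases from the start. The windows of Mmp1b and Mmp1a are alike in most of their letters. Mmp8 and Mmp20 held no match in their windows. A match of letters is a description and does not show that a factor binds.

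The same promoters differ in base content from those of the other members. CpG dinucleotides numbered 0 to 7 in the 11 promoters of the clustered genes (median 1) and 2 to 39 in the 19 promoters of the other members (median 17), against a median of 6 over all 32851 promoters. The median share of G and C bases was 40.4% in the cluster, 65.2% in the others and 52.4% over all promoters. The promoter of Mmp3, a stromelysin that cuts many matrix proteins, is shown with that of Timp3 as an example from each side, with CpG in capitals.
Mmp3 (chr9:7445572-7445821, + strand): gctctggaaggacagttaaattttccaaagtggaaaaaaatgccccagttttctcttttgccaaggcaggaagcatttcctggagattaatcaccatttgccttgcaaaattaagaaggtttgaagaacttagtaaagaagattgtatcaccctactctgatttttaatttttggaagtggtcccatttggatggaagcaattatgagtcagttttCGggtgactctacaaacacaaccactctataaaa
Timp3 (chr10:86300162-86300411, + strand): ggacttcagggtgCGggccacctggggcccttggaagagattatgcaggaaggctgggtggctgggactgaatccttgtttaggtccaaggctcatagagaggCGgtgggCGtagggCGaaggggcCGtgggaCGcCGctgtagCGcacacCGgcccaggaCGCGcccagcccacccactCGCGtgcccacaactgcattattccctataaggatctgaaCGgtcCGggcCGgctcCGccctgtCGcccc
Mmp3 has 1 CpG in these 250 bases and Timp3 has 18. For the TCF/LEF core CTTTGAT (either strand), through which canonical Wnt signals act on target genes, 1 of 27 member genes held a match (3.70%), against 3.72% of all genes. That match begins at -247 from the downstream of the RefSeq starts of Mmp7. The motifs were picked with the promoters in view.

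**Figure D1:**
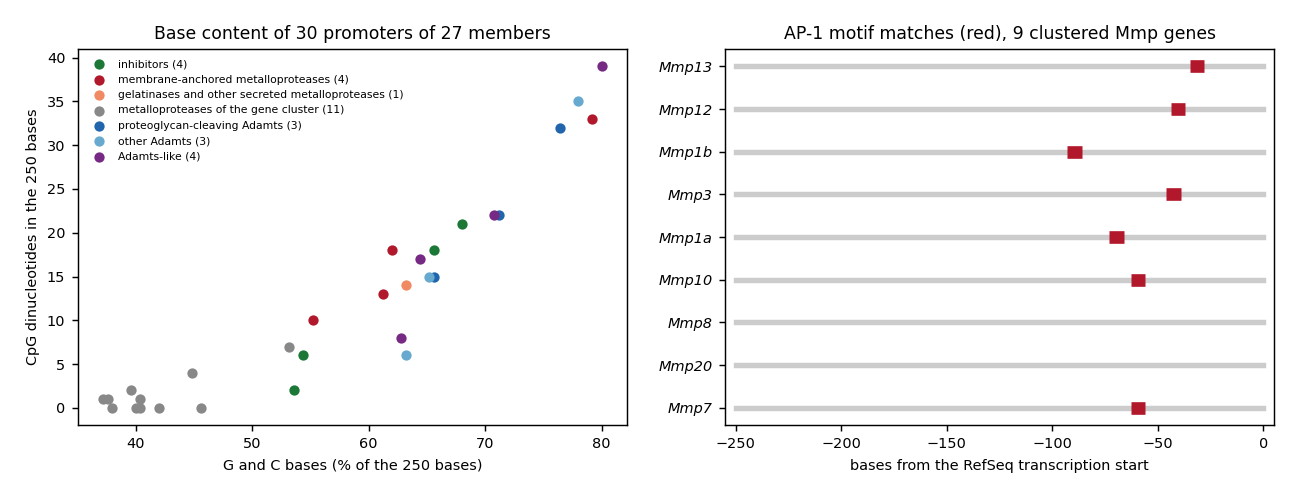
Base content and AP-1 matches of the members' promoters. Left: each point is 1 of 30 promoters, with the percent of G and C bases on the x axis and the number of CpG dinucleotides in 250 bases on the y axis, coloured by role; the clustered Mmp genes (grey) hold 0 to 7 CpG. Right: the 250 bases before the start of each clustered gene in chromosomal order, with AP-1 matches in red, between -93 and -35 in 7 genes.

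No member passed the threshold between genotypes. With limma and Benjamini-Hochberg adjustment over 45037 probe sets, 0 of 42 members had an adjusted p under 0.05, the lowest adjusted p being 0.987, while 0.0220% of all genes passed. At an unadjusted p under 0.05, 1 of 42 members was found (2.38%), against 4.60% of all genes. All 3 null arrays lay above all 3 wild-type arrays for 0 members (4.59% of all genes) and below them for 2, Mmp1b and Adamts8 (4.76% of members, 4.95% of all genes). Of the 42 differences 19 were above 0 and 23 below, with a median of -0.041 against 0.0077 over all genes. The members' median was -0.17 without null replicate 2. Only Adamts16 differed by 2-fold or more, being lower in the null arrays (1.24% of all genes were that much lower and 0.868% that much higher). These shares of members lie near or below those of all genes, apart from the fold count, which is 1 gene. Regardless of sign, the median size of the difference was 0.295 for members against 0.170 over all genes. For 17 members the 95% interval stayed within 2-fold either way. They include Mmp1a, Mmp1b, Mmp3, Mmp7, Mmp10, Mmp13 and Mmp20, which lay below the median of every array. RMA shrinks differences near background, so the narrow intervals of such dim genes do not bound a change in expression.

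The replicate numbers of the labels may pair the arrays. With the number as a block in limma, 6 of 42 members had an unadjusted p under 0.05 (14.3%), against 8.89% of all genes, and 0 members passed after adjustment (lowest adjusted p = 0.451), as did 0 of all genes. These 6 were Mmp14 and Adamtsl4, higher in the null arrays, and Mmp16, Mmp17, Adamts8 and Adamtsl5, lower. Same-number differences pointed higher in all 3 pairs for 7 members (16.7%), against 17.6% of all genes. They pointed lower in all 3 pairs for 9 members (21.4%), against 15.8% of all genes.

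**Figure D2:**
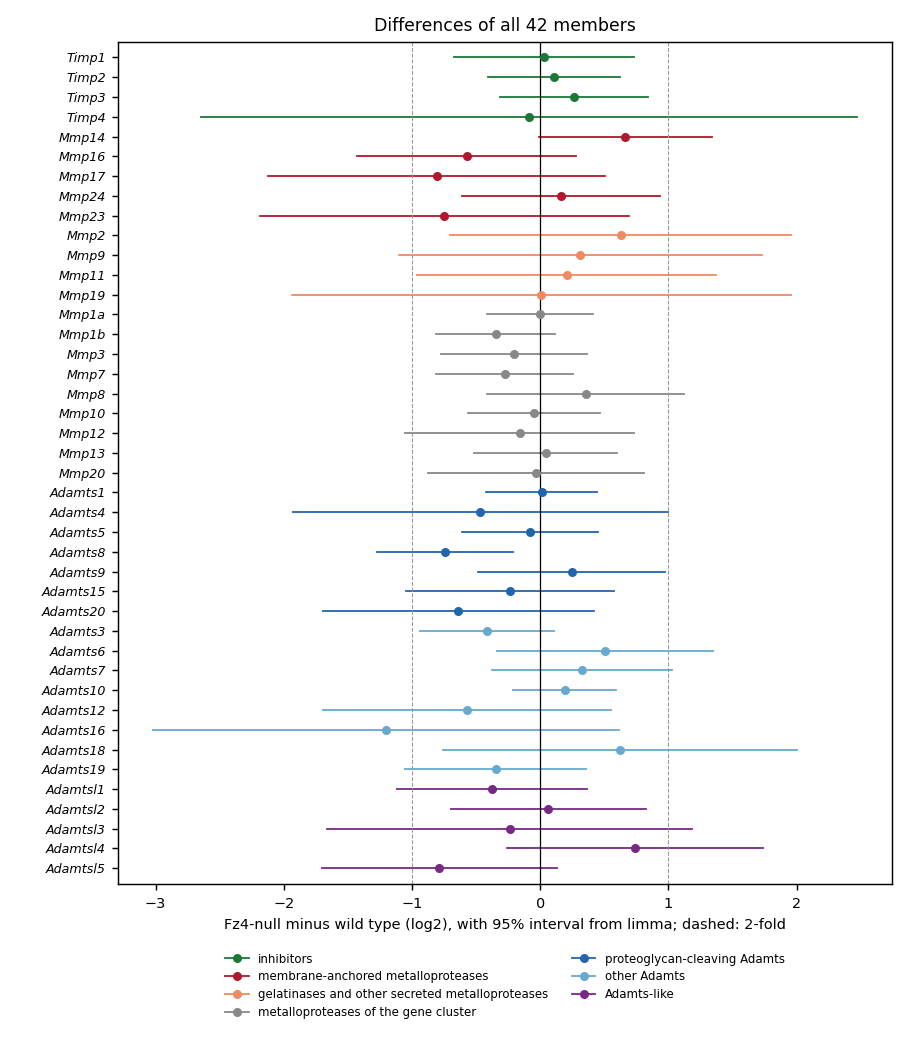
Difference between genotypes for each of the 42 members. The x axis gives Fz4-null minus wild type on the log2 scale; points are estimates and lines 95% intervals from limma (n = 3 arrays per group), coloured by role, and dashed lines mark 2-fold. Adamts8 is the only member whose interval leaves out 0 (-1.28 to -0.21), and Timp4 has the widest interval (-2.64 to 2.47).

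Among the inhibitors, Timp3 and Timp2 lay above the upper quartile of every array, and the intervals of their differences included 0. Timp3, the matrix-bound inhibitor, read 12.16, 12.01 and 11.39 in wild-type replicates 1 to 3 and 12.20, 12.17 and 11.99 in null replicates 1 to 3. Wild-type replicate 3 was the lowest and the other 5 arrays lay close together, so the groups overlapped. The difference was 0.27 (SE 0.24, 95% interval -0.31 to 0.84), or 0.81 to 1.79-fold, and was 0.035 without wild-type replicate 3. Its other 3 probe sets, also above the array medians, differed by 0.25, 0.28 and 0.58, each with wild-type replicate 3 lowest. Timp2, the partner of Mmp14 in Mmp2 activation, read 9.58, 9.72 and 10.21 in wild type and 9.86, 9.92 and 10.05 in null, again overlapping. Its difference was 0.10 (SE 0.22, 95% interval -0.41 to 0.62), and its next brightest probe set gave -0.097. Timp1, an inducible secreted inhibitor, read 7.06, 6.65 and 7.30 in wild type and 6.60, 6.98 and 7.52 in null, with a difference of 0.030 (SE 0.29, 95% interval -0.67 to 0.73). The groups overlapped, and the arrays numbered 3 were the highest of each group.

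Timp4, an inhibitor with restricted tissue expression, varied more within a group than any other member. It read 7.18, 7.76 and 8.62 in wild-type replicates 1 to 3 and 5.15, 8.71 and 9.43 in null replicates 1 to 3. Null replicate 1 was far below the rest, whereas null replicates 3 and 2 were the highest of all 6 arrays. The difference was -0.088 (SE 1.07, 95% interval -2.64 to 2.47) with all arrays and 1.22 without null replicate 1, and leaving out wild-type replicate 3 instead gave 0.30, so its sign rests on single arrays. The range was 4.28 within the null group against 1.44 in wild type. Its other probe set showed the same dip, with 6.69, 7.08 and 6.94 in wild type and 5.52, 8.03 and 7.48 in null. Astrocyte and Bergmann glia markers were also lowest on null replicate 1, as given above, and their part in the Timp4 values was not tested.

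Of the membrane-anchored enzymes, Mmp14 read higher in the null arrays in every same-number pair and did not pass the threshold. Mmp14 (MT1-MMP), a collagenase on the cell surface of sprouting endothelium, read 6.97, 7.35 and 6.73 in wild-type replicates 1 to 3 and 7.67, 8.12 and 7.25 in null replicates 1 to 3. Null replicate 3 lay below wild-type replicate 2, so the groups overlapped. The difference was 0.66 (SE 0.28, 95% interval -0.011 to 1.34), from 7.02 ± 0.31 to 7.68 ± 0.44 (SD, n = 3), with limma adjusted p = 1.00 and, with the replicate block, adjusted p = 0.462. By number the differences were 0.70, 0.77 and 0.51, and leaving out 1 array at a time gave 0.44 to 0.88. A second bright probe set of the gene read 6.76, 6.69 and 7.40 in wild type and 7.12, 7.59 and 8.32 in null, a difference of 0.73 (SE 0.35, 95% interval -0.11 to 1.57). The remaining set, close to or below the array medians, differed by 0.048. Both bright sets thus read higher in null by similar amounts, and the dimmest lay near 0.

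The other 4 membrane-anchored members did not pass either, 3 with values below 0 and Mmp24 above. Mmp17, which is tethered by a lipid anchor, read 5.64, 5.38 and 7.12 in wild-type replicates 1 to 3 and 4.98, 4.66 and 6.08 in null replicates 1 to 3. Wild-type replicate 3 was the highest array and the groups overlapped. The difference was -0.81 (SE 0.55, 95% interval -2.12 to 0.51) and -0.27 without wild-type replicate 3. That array also carried the most choroid plexus signal, and the part of those cells was not tested. By number the differences were -0.66, -0.72 and -1.04, all below 0, with limma adjusted p = 0.451 under the replicate block. Null replicate 3 was likewise the highest of the null arrays. Mmp16 (MT3-MMP) read 3.95, 5.02 and 4.88 in wild type and 3.53, 4.26 and 4.34 in null, below the median of every array, with a difference of -0.57 (SE 0.36, 95% interval -1.43 to 0.28). Leaving out null replicate 1 gave -0.32, and leaving out wild-type replicate 1 gave -0.91. The other 3 probe sets of Mmp16 were dimmer and differed by 0.19, 0.0010 and 0.24. Mmp24 (MT5-MMP), known from neurons, read 7.93, 7.82 and 8.73 in wild type and 8.36, 7.90 and 8.71 in null, a difference of 0.16 (SE 0.32, 95% interval -0.61 to 0.93). The highest array of each group was again number 3, and leaving out single arrays gave -0.029 to 0.45. Mmp23, anchored through its amino terminus, read 6.17, 5.20 and 6.39 in wild type and 4.01, 6.33 and 5.16 in null. Null replicate 1 was the lowest, and the difference of -0.75 became -0.17 without it and -1.33 without null replicate 2.

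Secreted enzymes outside the cluster showed wide spread and no called change. Mmp2 (gelatinase A), which degrades basement membrane collagen and is activated by Mmp14, read 6.76, 6.07 and 7.94 in wild-type replicates 1 to 3 and 6.70, 7.75 and 8.20 in null replicates 1 to 3. The arrays numbered 3 were the highest of each group, and the groups overlapped. The difference was 0.63 (SE 0.56, 95% interval -0.71 to 1.96), ranging from 0.20 without wild-type replicate 2 to 1.13 without wild-type replicate 3. Its dimmer probe set gave 0.75 with the same order of wild-type arrays. Mmp19, a secreted enzyme of vessel walls and other tissues, read 7.39, 7.77 and 6.59 in wild-type replicates 1 to 3 and 6.16, 9.23 and 6.38 in null replicates 1 to 3. A single array, null replicate 2, was higher than the other 5, and the difference of 0.0066 became -0.98 without it. In its dimmer probe set, below the median of every array, null replicate 2 was also the highest, at 4.93. Wild-type replicate 2 was close to it there, at 4.86, so the dimmer set did not show the same gap. Mmp9 (gelatinase B) and Mmp11 (stromelysin 3) lay below the median level on average and differed by 0.31 and 0.21. The signs rest on single arrays: leaving out null replicate 3 turned Mmp9 to -0.34 and leaving out wild-type replicate 2 to -0.064. Mmp11 turned to -0.10 when null replicate 2 was left out and to -0.088 when wild-type replicate 1 was. In Mmp9 null replicate 3 was the highest array, at 5.89, whereas the other 5 arrays read 3.53 to 4.74.

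The 9 clustered Mmp genes, whose promoters are shown above, lay below the array median on every array. Mmp1a, Mmp1b, Mmp7 and Mmp13 lay below the lower quartiles on all 6, so their signal is not shown to lie above background in either genotype. Mmp1b, named as an interstitial collagenase, read 2.49, 2.43 and 2.70 in wild-type replicates 1 to 3 and 2.43, 1.98 and 2.18 in null replicates 1 to 3. The groups did not overlap, but the values lie in the range where signal is not told from background. Mmp7 (matrilysin) read 3.39, 2.69 and 3.15 in wild type and 2.88, 2.82 and 2.69 in null, overlapping. Differences in the 9 genes ran from -0.35 to 0.35 with a median of -0.048, 7 below 0 and 2 above. Mmp8, the neutrophil collagenase, had the largest difference above 0 and read 3.26, 4.02 and 3.23 in wild type and 3.33, 4.12 and 4.12 in null. Mmp20 (enamelysin), Mmp3, Mmp10 (stromelysins), Mmp12 (macrophage elastase) and Mmp13 (collagenase 3) differed by -0.035, -0.20, -0.048, -0.16 and 0.043. With each array left out in turn the signs of these 5 turned at least once. The microglia and macrophage markers were far lower on null replicate 1, at 5.39, and Mmp12 there read 2.53, between the other null arrays. Only on null replicate 2, at 3.57, did Mmp12 reach the lower quartile of its array. Its signal on the other arrays is not shown to lie above background. The part of microglia and macrophages in the Mmp12 values was not tested.

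**Figure D3:**
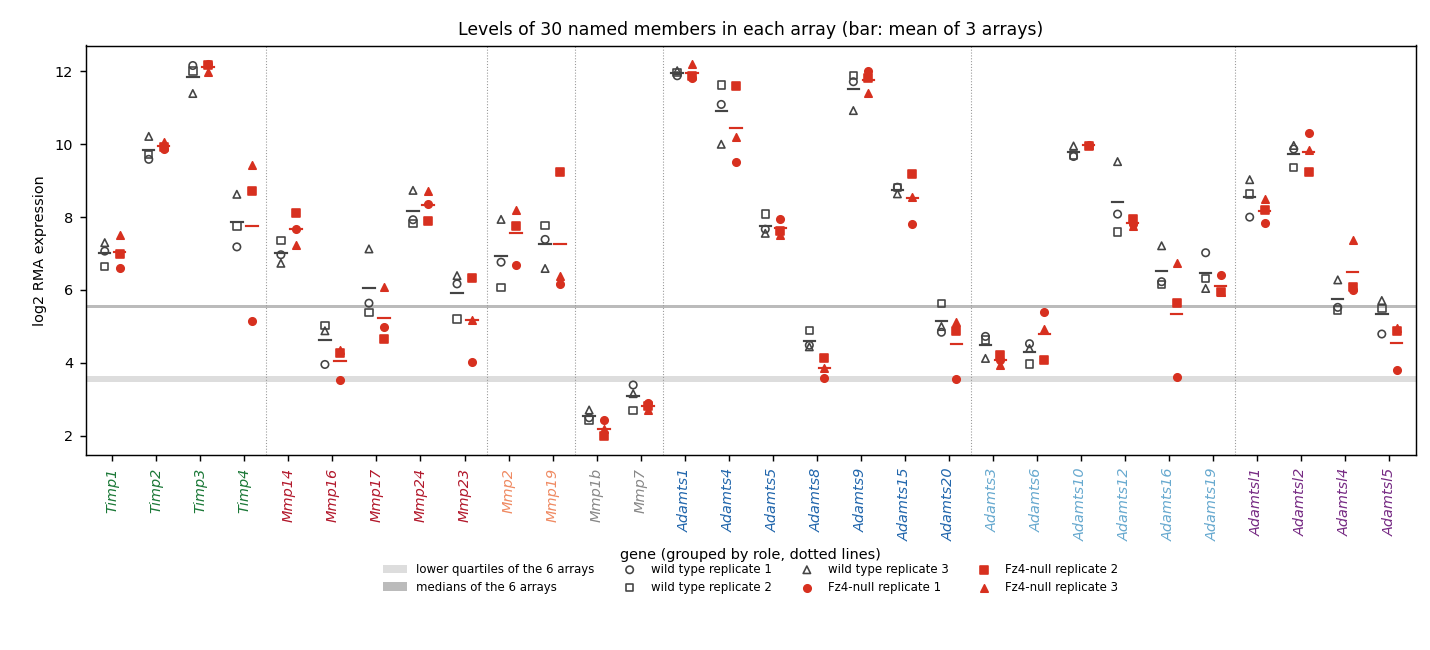
Levels of 30 members in each of the 6 arrays. The y axis is log2 RMA expression; open symbols are wild type, filled red symbols Fz4-null, the shape gives the replicate number and short bars the mean of 3 arrays; grey bands mark the arrays' lower quartiles (3.46 to 3.64) and medians (5.52 to 5.58). Adamts1 and Adamts10 show the tight values and Timp4, Adamts16 and Mmp19 the wide ones.

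The Adamts proteases that cut proteoglycans included 3 genes above the upper quartile of every array, Adamts1, Adamts4 and Adamts9. Adamts1, a versican and aggrecan protease that is also known to restrain angiogenesis, read 11.88, 11.97 and 12.02 in wild-type replicates 1 to 3 and 11.82, 11.88 and 12.19 in null replicates 1 to 3. The arrays spanned little and the groups overlapped. The difference was 0.010 (SE 0.18, 95% interval -0.42 to 0.44), or 0.75 to 1.36-fold. It was one of 3 members whose interval stayed within 1.5-fold, the others being Mmp1a and Mmp10, both below the median of every array. Adamts9, a versican protease needed in vascular and eye development, read 11.72, 11.88 and 10.92 in wild type and 12.01, 11.83 and 11.41 in null, a difference of 0.24 (SE 0.31, 95% interval -0.48 to 0.97). Its lowest array was wild-type replicate 3, without which the difference was -0.048, and its other probe sets gave 0.15 and -0.0050.

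Adamts4 (aggrecanase 1) varied across arrays in a way that its probe sets shared. It read 11.09, 11.63 and 9.9977 in wild-type replicates 1 to 3 and 9.52, 11.60 and 10.19 in null replicates 1 to 3. Both arrays numbered 3 and null replicate 1 were low and the other 3 were high. The second probe set read 11.15, 11.25 and 10.06 in wild type and 9.94, 11.18 and 10.22 in null, the same split. Differences were -0.47 (SE 0.62, 95% interval -1.93 to 1.00) and -0.37, and the first was -0.011 without null replicate 1 and -1.05 without null replicate 2. Adamts5 (aggrecanase 2) read 7.67, 8.08 and 7.55 in wild type and 7.95, 7.61 and 7.50 in null, a difference of -0.078 (SE 0.22, 95% interval -0.61 to 0.45). Its other 3 probe sets differed by -0.089, 0.22 and 0.029. Adamts15, a related versican protease, read 8.82, 8.80 and 8.64 in wild type and 7.82, 9.18 and 8.56 in null. Null replicates 1 and 2 were the lowest and the highest of the 6, and the difference was -0.23 with them and 0.12 without null replicate 1.

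Adamts8, a close relative of Adamts1 that is likewise known to restrain angiogenesis, was the member with the lowest p. It read 4.48, 4.88 and 4.44 in wild-type replicates 1 to 3 and 3.58, 4.13 and 3.86 in null replicates 1 to 3. The groups did not overlap, and the values lay between the lower quartile and the median of the arrays, except null replicate 1 near the lower quartile. The difference was -0.74 (SE 0.22, 95% interval -1.28 to -0.21), from 4.60 ± 0.25 to 3.86 ± 0.27 (SD, n = 3), with limma adjusted p = 0.987, so it did not pass. With the replicate block the adjusted p was 0.454. Leaving out 1 array gave -0.88 to -0.60, and the gene has 1 probe set here. Adamts20, known from pigment cell migration, read 4.84, 5.62 and 4.9952 in wild type and 3.55, 4.86 and 5.13 in null. Null replicate 1 was the lowest array, and the difference of -0.64 was -0.16 without it.

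The remaining Adamts proteases have other substrates. Adamts10, which acts on fibrillin microfibrils, read 9.66, 9.71 and 9.95 in wild-type replicates 1 to 3 and 9.97, 9.94 and 9.98 in null replicates 1 to 3. The null arrays lay within 0.04 of one another, and wild-type replicate 3 lay between them, so the groups overlapped. The difference was 0.19 (SE 0.17, 95% interval -0.21 to 0.59). Adamts12, which cuts cartilage oligomeric matrix protein, read 8.08, 7.60 and 9.52 in wild type and 7.80, 7.94 and 7.74 in null. Wild-type replicate 3 was the highest by over 1 and the difference of -0.57 became -0.012 without it. That array had the most choroid plexus and fibroblast signal, whose part was not tested.

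Adamts16, a fibronectin-cutting protease, had the largest difference of the 42 and one of the widest spreads. It read 6.22, 6.14 and 7.21 in wild-type replicates 1 to 3 and 3.61, 5.63 and 6.74 in null replicates 1 to 3. Null replicate 1 lay near the lower quartile, and null replicate 3 lay above wild-type replicates 1 and 2. The difference was -1.20 (SE 0.76, 95% interval -3.02 to 0.62) and -0.34 without null replicate 1. Its other probe set lay below the array lower quartiles and differed by 0.11. Fibroblast, astrocyte and microglia markers were lowest on the same array, and their part in this value was not tested. Adamts19, of unsettled substrate, read 7.02, 6.31 and 6.04 in wild type and 6.42, 5.95 and 5.96 in null, a difference of -0.35 (SE 0.30, 95% interval -1.06 to 0.36) that was -0.067 without wild-type replicate 1. Adamts3, which processes procollagen and the lymphatic growth factor Vegfc, read 4.72, 4.62 and 4.12 in wild type and 4.07, 4.21 and 3.94 in null. Null replicate 2 lay above wild-type replicate 3, and the difference was -0.41 (SE 0.22, 95% interval -0.94 to 0.11). Adamts6, below the median of every array, read 4.52, 3.97 and 4.39 in wild type and 5.38, 4.08 and 4.94 in null. The difference was 0.50 (SE 0.35, 95% interval -0.34 to 1.35). It was 0.21 without null replicate 1 and 0.86 without null replicate 2. The other probe set of Adamts6 lay below the lower quartiles on every array and differed by 0.079. Adamts7 and Adamts18 lay below the median of every array and differed by 0.33 and 0.62. With single arrays left out Adamts7 ranged from 0.089 to 0.55. Adamts18 was 0.039 without wild-type replicate 3, where it read 3.17, and 1.04 without null replicate 1. Its other probe sets, at similar levels, had the opposite sign and differed by -0.10 and -0.17.

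Adamts-like proteins keep the thrombospondin repeats and lack the protease domain, and several bind fibrillin. Adamtsl4, which promotes fibrillin microfibrils in the eye, read 5.52, 5.45 and 6.27 in wild-type replicates 1 to 3 and 6.01, 6.09 and 7.36 in null replicates 1 to 3. Null replicate 3 was the highest, and wild-type replicate 3 lay above null replicates 1 and 2, so the groups overlapped although every same-number pair leaned higher (0.49, 0.64 and 1.09). The difference was 0.74 (SE 0.42, 95% interval -0.26 to 1.74), and 0.30 without null replicate 3. Adamtsl5 read 4.79, 5.50 and 5.71 in wild type and 3.81, 4.88 and 4.95 in null, a difference of -0.79 (SE 0.39, 95% interval -1.71 to 0.13), with null replicate 1 the lowest and a value of -0.42 without it. Its same-number differences were all below 0 (-0.98, -0.62 and -0.76), while its dimmer probe set differed by -0.028. Adamtsl2, which binds fibrillin and a latent TGF-beta binding protein, read 9.87, 9.36 and 9.97 in wild type and 10.30, 9.22 and 9.85 in null, a difference of 0.062 (SE 0.32, 95% interval -0.70 to 0.82) that ranged from -0.19 to 0.35 with single arrays left out. Adamtsl1 (punctin) read 7.9974, 8.63 and 9.03 in wild type and 7.84, 8.19 and 8.49 in null, a difference of -0.38 (SE 0.31, 95% interval -1.12 to 0.37). Leaving out wild-type replicate 3 gave -0.14, and leaving out wild-type replicate 1 gave -0.65. Adamtsl3 lay below the median of every array and differed by -0.24, but by 0.35 without null replicate 3.

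**Figure D4:**
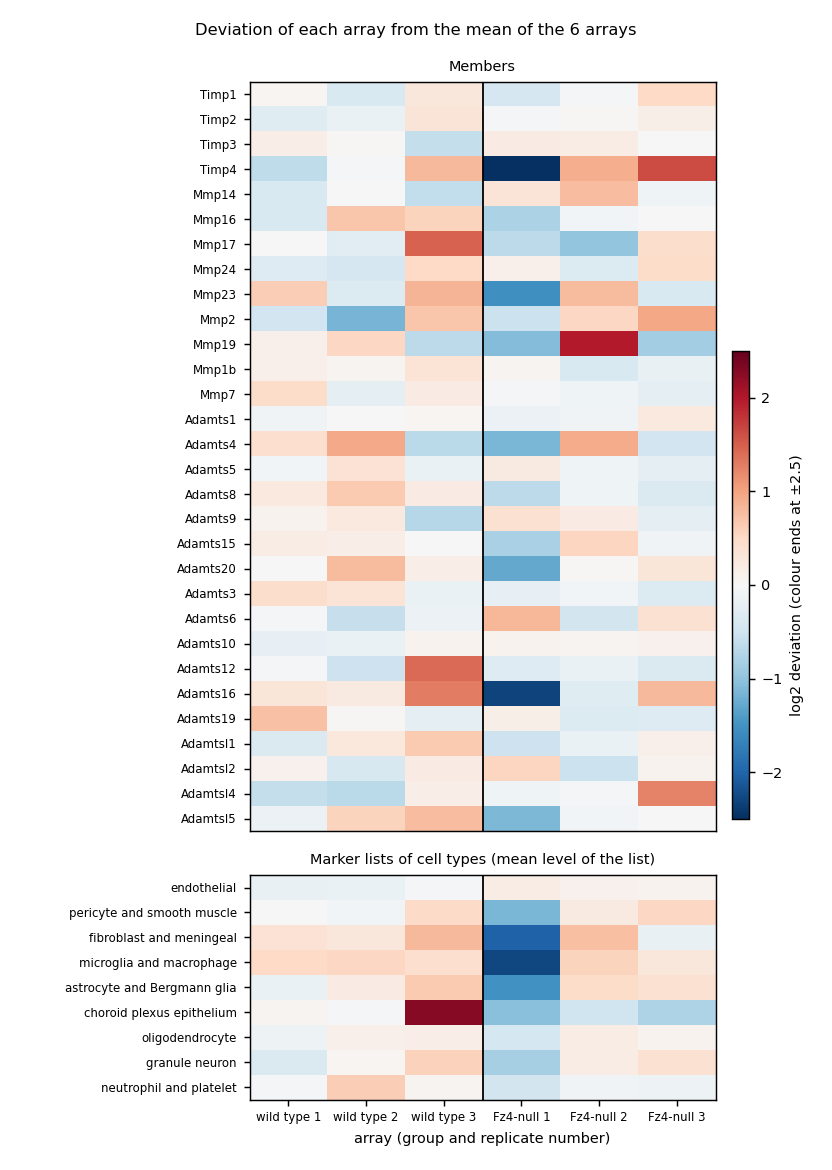
Deviation of each array from the mean of the 6 arrays, in log2 units, for 30 members (top) and for the mean level of 9 cell type marker lists (bottom). Red is above and blue below the mean, colours end at 2.5 either way, and the black line parts wild type from Fz4-null arrays; Timp4 and Adamts16 are lowest on null replicate 1, where the fibroblast, microglia and astrocyte lists are lowest too, and Mmp17, Adamts12 and Adamts16 are highest on wild-type replicate 3, where the choroid plexus list is highest.

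The spread within a genotype was wide for several members, as the heat map of deviations shows. Within the null group the widest ranges were those of Timp4 (4.28), Adamts16 (3.12), Mmp19 (3.07), Mmp23 (2.32) and Adamts4 (2.08), and within wild type those of Adamts18 (1.96), Adamts12 (1.93), Mmp2 (1.86) and Mmp17 (1.74). Among the 21 members read by several probe sets, all sets gave the same sign of difference in 9. Among the 8 with several sets above the median level they did so in 3.

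Other genes of extracellular proteolysis were counted from a list of 43 genes, 40 of them measured. Over all probe sets 0 passed in either direction, and at an unadjusted p under 0.05 there were 4 higher and 1 lower, where 4.60% of all genes passed in either direction. With the replicate block there were 4 higher and 3 lower, Plaur and Tfpi2 joining those lower, against 8.89% of all genes. The ADAM sheddases held 2 of these. Adam12, a membrane protease that cuts growth factor precursors and matrix, read 6.58, 7.21 and 7.52 in wild-type replicates 1 to 3 and 8.92, 8.72 and 9.02 in null replicates 1 to 3, all null arrays above all wild-type arrays. Its difference was 1.79 (SE 0.27, 95% interval 1.15 to 2.43), from 7.10 ± 0.48 to 8.89 ± 0.15 (SD, n = 3), with limma adjusted p = 0.348, which did not pass. Adam19, its relative, read 7.13, 6.89 and 6.60 in wild type and 7.61, 7.47 and 7.39 in null, without overlap and with a difference of 0.62 (SE 0.20, 95% interval 0.14 to 1.09). Adam15 differed by 0.28.

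Among the pro-protein convertases, which activate membrane-type Mmp and Adamts precursors, Pcsk6 read 6.03, 5.62 and 6.14 in wild type and 7.21, 6.85 and 7.61 in null. The groups did not overlap, and the difference was 1.30 (SE 0.26, 95% interval 0.68 to 1.91) with limma adjusted p = 0.571. Furin and Pcsk7 differed by 0.040 (-0.014 to 0.082 with single arrays left out) and 0.43 (0.28 to 0.68). In the plasminogen system S100a10, which holds plasminogen at the cell surface with annexin A2, read 9.91, 9.88 and 10.44 in wild type and 11.11, 10.65 and 11.69 in null. These groups did not overlap either, with a difference of 1.07 (SE 0.31, 95% interval 0.33 to 1.81) and limma adjusted p = 0.929. The probe sets of S100a10 and of Adam15 are of a kind that may read several transcripts. Anxa2, which encodes annexin A2, differed by 0.16 (SE 0.16). Plaur, the urokinase receptor, differed by -0.72 with both arrays numbered 3 low, and Plgrkt by 0.32. Plaur was lower in null in all 3 same-number pairs and ranged from -1.28 to -0.24 with single arrays left out.

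Inhibitors outside the Timp family did not pass either, with 0 of 6 measured genes at an unadjusted p under 0.05 and 1 of 6, Tfpi2, with the replicate block. Reck, the membrane-anchored Mmp inhibitor that also serves Wnt7 signalling in brain endothelium, read 9.15, 8.93 and 9.20 in wild type and 9.55, 9.13 and 9.31 in null, overlapping, with a difference of 0.24 (SE 0.19, 95% interval -0.22 to 0.69) that was 0.12 without null replicate 1. Tfpi2 and Serping1 differed by -0.42 and -0.73. The latter rests on null replicate 1, at 7.25, and was 0.023 without it. Of 13 substrates measured, Bcan (brevican), cut by Adamts4 and Adamts5, read 4.74 ± 0.24 in wild type and 4.26 ± 0.14 in null (SD, n = 3). The difference was -0.48 (SE 0.20, 95% interval -0.95 to -0.0067). Bcan lay below the median of every array and did not pass the adjusted threshold. Acan and Fbn2 differed by 1.28 and -1.04, the first resting on null replicate 2, at 6.53, and read at 0.45 without it. Fbn2 was -0.49 without null replicate 1 and -1.74 without null replicate 2.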

How the data were processed

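The authors deposited log2 values, made with RMA per the submitters' processing notes, which name no implementation. Near background RMA shrinks differences. Arrays were hybridised with biotin-labelled total RNA, per the labels, and their number limits the precision. Whether replicates were separate animals or pools is not given, so p-values cover only the spread among these samples, which may be technical. Of 45101 probe sets 64 controls were left out. Symbols came from the platform annotation (34945 probe sets with 1 symbol, 932 with several, 9160 with none), and the RefSeq table changed 0 of 34741 matched. All 42 members matched.

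The test between genotypes was limma 3.58.1, run in R 4.3.3 (2 groups, no covariate, eBayes, two-sided, Benjamini-Hochberg at 0.05 over all probe sets). The fit was tested on simulated data. An exact permutation of 3 against 3 arrays cannot go below 0.1 and was not used. Deviations from group means correlated at 0.244, 0.303 and 0.574 between arrays of the same number, above the minimum of 0.1 for pairing (the labels give the numbers), although unlike numbers 2 and 1 reached 0.262; the block is therefore given beside counts it moves. Named with values in every array were members above the median level, the 12 with the lowest p and all Timps, 30 in all, and up to 3 partner genes per list; Mmp8, and single arrays of Mmp9 and Mmp12, were added after their values were seen. Members and lists, and the promoter motifs, were chosen with earlier results of these data known. Promoters are from RefSeq (GRCm38.p6). Alternatives covered normalization, filters, the variance model, the choice of probe set, the block and each array left out, and without both arrays numbered 3 or with a batch term for them, added after seeing the data.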

Additional observations from a re-analysis of the deposited data

How the results depend on the processing

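The count of 0 members past the adjusted threshold held under all 21 alternatives. That of 0 partner genes held under those run for them, which were all but the thresholds of 0.01 and 0.1. The lowest adjusted p of a partner gene was 0.348 in the main limma fit. Few of all genes passed in these fits either: 0 with the replicate block or the unmoderated statistic, and at most 12, with array weights. A count of 0 members was therefore likely beforehand and is weak evidence of stability. With dim probe sets filtered out by a floor at log2 of 100, 0 of 17 members had an unadjusted limma p under 0.05 (4.25% of all genes that passed). With a floor at the median level 0 of 22 did (4.31%). Such members numbered 2 with probe sets averaged per gene (5.0% of all genes) and 3 with array weights (8.54%). There were 5 without both arrays numbered 3 (8.23%) or with a batch term for them (9.0%). The replicate block gave 6 (8.89%), and leaving out 1 array gave 1 to 4 (3.06% to 8.34%). With the block, partner genes at an unadjusted p under 0.05 went from 4 higher and 1 lower to 4 higher and 3 lower. It moved no gene of either list past the adjusted threshold. Members without overlap numbered 1 under quantile, median-centred and cyclic loess normalization (4.53% to 4.85% higher and 4.44% to 4.78% lower of all genes). With the filter at the median level they numbered 0 (5.86% higher and 2.97% lower). The filter at log2 of 100 also gave 0 (5.77% and 2.74%). With probe sets averaged there were 4 (4.55% and 5.35%), and without both arrays numbered 3 there were 12 (23.7% and 17.2%). Leaving out 1 array gave 5 to 8 (6.78% to 16.8% higher and 7.44% to 12.7% lower). Fewer arrays separate more easily. The median difference lay between -0.17 and -0.0008 with 1 array left out. It was 0.0083 over the members that passed the filter at the median level, against 0.054 over all genes that passed. With the filter at log2 of 100 it was 0.030 against 0.053. Of 549 differences of named members under alternatives 517 kept their sign and 32 did not, and 18 of 30 members kept it throughout. The difference itself stays the same under trend and robust variance, the unmoderated statistic, the replicate block and the batch term. It also stayed the same without probe sets reading several transcripts and, for members that passed, under both filters. Those values could not turn, so the 517 overstates how stable the signs are. Adamts1 read -0.0030 under cyclic loess, -0.0049 with array weights and -0.074 without both arrays numbered 3, where Adamts12 read 0.029. Mmp19 read -0.027 under quantile normalization, -0.059 under cyclic loess, -0.049 with array weights and -0.13 with probe sets averaged. Timp1 read -0.0086 under quantile normalization, -0.032 under cyclic loess and -0.066 without both arrays numbered 3. With probe sets averaged Adamts5 read 0.020, Adamtsl1 0.039, Mmp24 -0.13 and Timp4 0.0081. With 1 array left out 19 of all 42 members crossed 0, 9 of them among the 12 not named; the named ones ranged as Adamts1 (-0.10 to 0.082), Adamts15 (-0.57 to 0.12), Adamts5 (-0.21 to 0.078), Adamts9 (-0.048 to 0.43), Adamtsl2 (-0.19 to 0.35), Mmp19 (-0.98 to 0.55), Mmp24 (-0.029 to 0.45), Timp1 (-0.21 to 0.24), Timp2 (-0.023 to 0.29), Timp4 (-0.92 to 1.22). The cause was not tested. Low signal, below the median of every array, limits the clustered Mmp genes, Adamts3, Adamts6, Adamts7, Adamts8, Adamts18, Adamtsl3 and Mmp16. The 3 arrays per group limit all.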

Other observations

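Dimmer probe sets of some members gave values outside the comparisons above. The second probe set of Adamts12 read 2.16, 2.37 and 2.54 in wild type and 1.80, 2.01 and 1.95 in null, without overlap between the genotypes but below the arrays' lower quartiles throughout. A dimmer set of Mmp24 read 4.65, 4.78 and 4.50 in wild type and 4.43, 4.49 and 4.44 in null, also without overlap and opposite in sign to the brightest set of that gene. The third set of Adamtsl1 read 3.62, 3.44 and 3.91 in wild type and 5.70, 3.12 and 5.0039 in null, a difference of 0.95 against -0.38 for the brightest. These sets were picked after their values were seen.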
